A study of Mus musculus with 12 samples.

Results

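The genes described here code for the proteins that hold back ERK signalling from inside the cell: the dual-specificity MAP kinase phosphatases Dusp1, Dusp4, Dusp5, Dusp6 and Dusp7, the Sprouty genes Spry2 and Spry4, and the Spred genes Spred1 and Spred2. They are the 9 genes that bear these symbols in the tables, out of 21878 genes per library, and were taken by name. They and the gene lists used below were chosen with earlier results of these data known. Counts of their calls beside those of all genes are therefore a description, not a test on sets picked blind. All 9 passed the filter on low values and are among the 12689 genes tested. The RNA came from the hippocampus of 4 groups with 3 libraries each: mice with a conditional double knockout that includes Psen2 (DKO) and wild-type mice (WT), each killed at 9 p.m. (Night) or at 9 a.m. (Day). Psen2 codes for a catalytic subunit of gamma-secretase, the protease that cuts Notch and the amyloid precursor protein within the membrane. All 4 groups were killed under pentobarbital at 30 mg/kg. Of the Cre driver of the knockout, the age, strain and sex of the mice and the number of mice per library, none is given in the sources used here.

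ERK kinases carry signals of growth factors, neurotrophins and synaptic calcium from Ras to the nucleus, and in the hippocampus they take part in synaptic plasticity and memory. The dual-specificity phosphatases remove phosphate from both the threonine and the tyrosine of an active MAP kinase: Dusp1, Dusp4 and Dusp5 sit in the nucleus, Dusp6 and Dusp7 in the cytoplasm. Sprouty and Spred proteins act higher up, on Ras and Raf. Many of these genes are transcribed in response to the signal that their proteins then shut off, which makes them feedback inhibitors, and their RNA is often used as a readout of recent ERK activity.

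The values are FPKM, fragment numbers divided by transcript length and by library size, as the authors deposited them. Library sums ranged from 151058 to 175692 FPKM. The tables hold no counts, so read depth is unknown, and the steps between low values give relative depths of 0.9101 to 1.0456, with Day WT replicate 1 as the unit. Psen2, a targeted gene, averaged 0.477 ± 0.122 FPKM in Night DKO and 3.38 ± 0.381 FPKM in Night WT, and 0.391 ± 0.123 FPKM in Day DKO and 2.0 ± 0.756 FPKM in Day WT (SD, n = 3 each), with limma adjusted p = 0.000785 at night and 0.00982 by day. Night WT replicate 1 stood apart in the Y-linked gene Ddx3y, at 0.0225 FPKM against 6.83 to 8.56 FPKM in the other 11 libraries, so comparisons that use Night WT mix libraries with and without Y-linked RNA. The 6 marker genes of the hippocampal subfields were above 0 in every library, with sums of 69.4 to 72.0 FPKM in Night DKO, 71.8 to 79.9 FPKM in Night WT, 70.9 to 89.5 FPKM in Day DKO and 70.7 to 85.1 FPKM in Day WT.

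Since FPKM is scaled to transcript length, the 9 genes can be ranked by level. Dusp6 was the most abundant with a mean of 21.3 FPKM over the 12 libraries, followed by Dusp7 at 16.2 FPKM and Spred1 at 14.7 FPKM. Dusp1 averaged 8.84 FPKM, Spry2 6.26 FPKM, Dusp4 5.8 FPKM and Dusp5 4.77 FPKM. Spry4 at 1.84 FPKM and Spred2 at 1.21 FPKM were the lowest, and 24.4% and 15.8% of the tested genes lay below them, against 88.5% below Dusp6. Dusp6 exceeded Dusp7 in 12 of 12 libraries, Spred1 exceeded Dusp1 in 12, Dusp5 exceeded Spry4 in 12 and Spry4 exceeded Spred2 in 12. The ranges of Dusp7 and Spred1 overlapped, and so did those of Dusp1, Spry2, Dusp4 and Dusp5 with their neighbours in the order, with Spry2 above Dusp4 in 9 of 12 libraries. The genes also differed in how far they moved: the highest library held 3.1 times the lowest for Dusp1 and 2.7 times for Dusp5, against 1.54 times for Dusp4 and 1.17 to 1.42 times for the other 6.

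**Figure D1:**
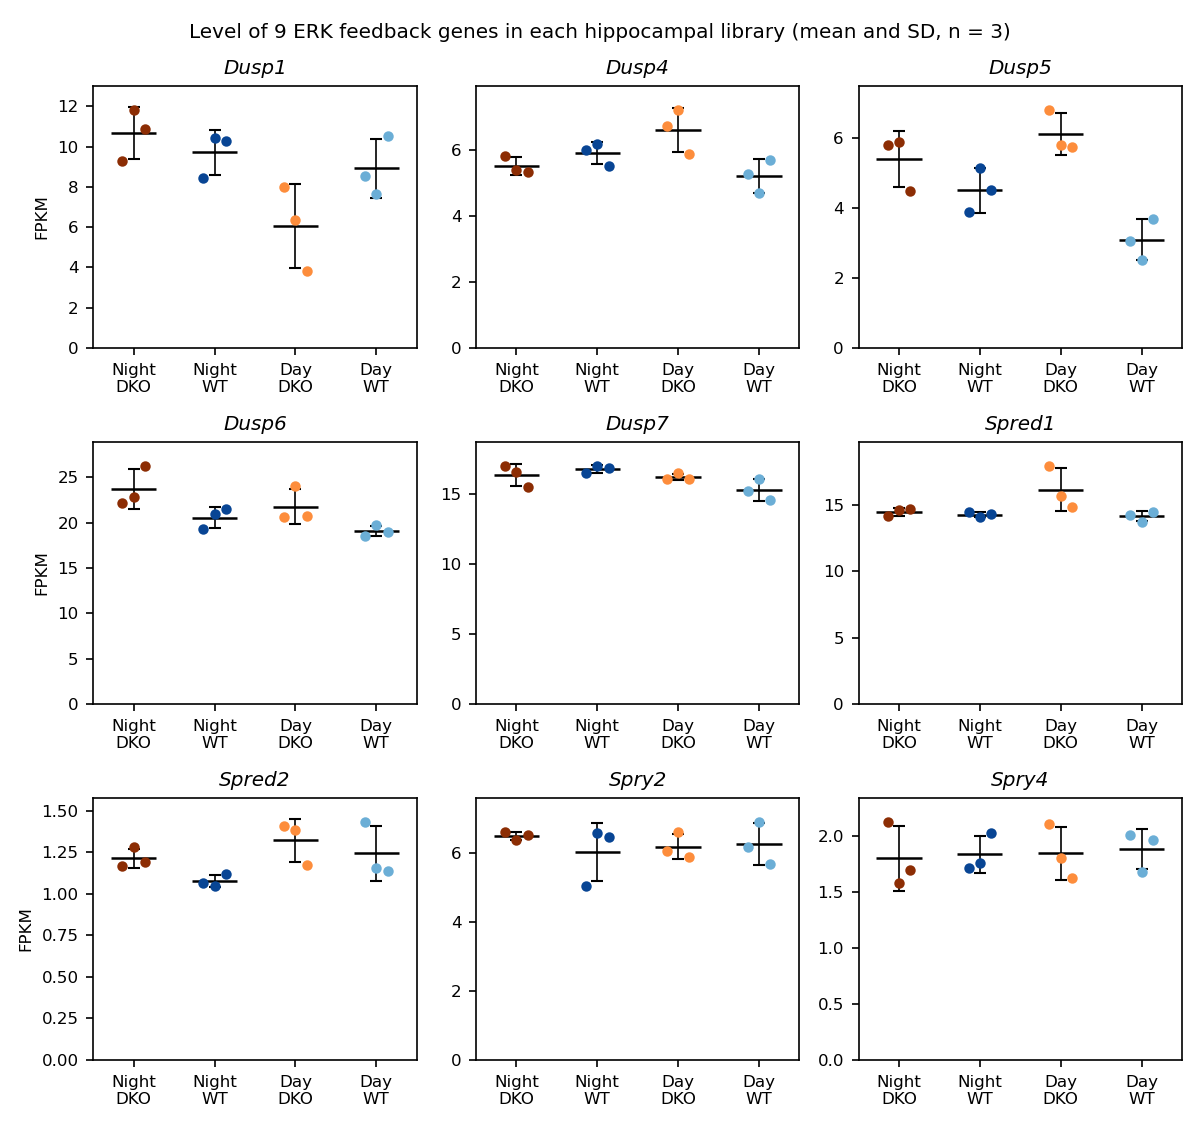
Level of each of the 9 genes in FPKM (y axis, from 0, scaled per gene) in every library of Night DKO, Night WT, Day DKO and Day WT; points are libraries, and the bar and whiskers are the mean and SD (n = 3). Dusp5 in Day WT (2.52 to 3.68 FPKM) lies under all other groups, and Dusp1 in Day DKO (3.82 to 8.0 FPKM) lies under Night DKO, while the highest group mean is at most 1.1 times the lowest for Dusp7, Spry2 and Spry4.

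Dusp5 was the only one of the 9 genes that passed the test of genotype, and it rose in DKO by day, a comparison in which 1.18% of all 12689 tested genes were called. Dusp5 (chr19:53529145-53541809, plus strand, GRCm38.p6) codes for a nuclear phosphatase that acts on ERK and is itself induced by ERK signalling. By day it was measured at 6.80, 5.78 and 5.74 FPKM in the DKO libraries, against 3.06, 2.52 and 3.68 FPKM in the WT libraries. All 3 Day DKO libraries were above all 3 Day WT libraries. The means of 6.11 ± 0.601 FPKM in Day DKO and 3.09 ± 0.581 FPKM in Day WT differ 1.98-fold (SD, n = 3 each; log2 difference 0.80, SE 0.12, 95% interval 0.54 to 1.06, limma adjusted p = 0.0153). At night it was measured at 5.81, 5.89 and 4.49 FPKM in DKO, against 3.87, 5.14 and 4.50 FPKM in WT. Those ranges overlapped, and the night difference of 0.22 missed the threshold (95% interval -0.04 to 0.48, adjusted p = 0.628). Day WT was thus the low group: Night DKO averaged 5.4 ± 0.788 FPKM and Night WT 4.5 ± 0.633 FPKM. Averaged over both times Dusp5 rose in DKO by 0.51 (SE 0.09, adjusted p = 0.0146). Within WT it was 1.46-fold higher at night than by day with no overlap between the libraries, a difference of 0.43 that missed the threshold (95% interval 0.17 to 0.69, adjusted p = 0.0773). The interaction of genotype and time, the test of whether the night difference differs from the day difference, was -0.59 for Dusp5 (95% interval -0.96 to -0.22, limma adjusted p = 0.505), so a difference between the times was not established over all genes.

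The call of Dusp5 by day was lost without Day WT replicate 2, the lowest library (log2 difference 0.70, adjusted p = 0.0513), with no filter on low values (0.80, adjusted p = 0.0509), and with the choroid plexus level of each library as a covariate (0.72, adjusted p = 0.11). Over 24 alternative settings it was called in 21, and the difference ranged between 0.70 and 0.97 with adjusted p of 0.00886 to 0.11. In the annotation, 511 bases of Dusp5 overlap the antisense gene AC137853.2, and whether the authors' quantification used strand is not given in the sources used here.

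Dusp1 had the widest range over single libraries of the 9 genes, with its lowest mean in Day DKO. Between group means Dusp5 moved more, with the highest 1.98 times the lowest, against 1.76 times for Dusp1. Dusp1 (chr17:26505591-26508472, minus strand), also known as MKP-1, is an immediate-early gene whose product dephosphorylates p38 and JNK as well as ERK. In DKO it was measured at 9.28, 11.83 and 10.90 FPKM at night, against 8.0, 6.36 and 3.82 FPKM by day, and the 2 groups did not overlap. In WT it was measured at 8.42, 10.45 and 10.27 FPKM at night, against 8.56, 7.66 and 10.52 FPKM by day, with overlap. The night-to-day difference was 0.77 in DKO (means 10.7 ± 1.29 and 6.06 ± 2.11 FPKM, ratio 1.76, 95% interval 0.37 to 1.16, limma adjusted p = 0.0962) and 0.12 in WT (means 9.71 ± 1.12 and 8.92 ± 1.46 FPKM, 95% interval -0.28 to 0.51, adjusted p = 0.743). Neither passed the threshold over all genes. By day the DKO value was 0.53 lower than WT on the log2 scale (difference -0.53, 95% interval -0.92 to -0.13, adjusted p = 0.175), with 2 of 3 DKO libraries below all WT libraries. At night the difference was 0.12 (adjusted p = 0.895). The interaction in limma, over 12 libraries, was 0.65 (95% interval 0.09 to 1.21, adjusted p = 0.561). The size of these differences moved with single Day DKO libraries. Without replicate 1, the highest of that group, the night-to-day difference in DKO was 0.96 and passed the threshold (adjusted p = 0.0428), the day difference was -0.725 and the interaction 0.85. Without replicate 3, the lowest, the night-to-day difference in DKO was 0.51 (adjusted p = 0.142), the day difference -0.28 and the interaction 0.40.

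The sequence before the start of these 2 genes is shown because they varied most and because both carry elements of signal-induced transcription. The choice thus used the motif matches themselves, which are given as a description. Promoters came from RefSeq on GRCm38.p6 and were found for 7 of the 9 genes, but not for Dusp4 and Spry4. The 250 bases before the start are printed 5′ to 3′ on the strand of the gene, and capitals mark the motif letters found on either strand. In Dusp5 (chr19:53528895-53529144, plus strand) the capitals mark a pair of adjoining CArG boxes, the element bound by serum response factor, at 82 to 73 and 72 to 63 bases before the start, and the letters TGACG on the minus strand at 55 to 51 bases. In Dusp1 (chr17:26508473-26508722, minus strand) they mark TGACGTCA, the full cAMP response element, at 143 to 136 bases before the start, its core TGACG at 191 to 187 bases, and the E-box CACGTG, an element that can be bound by CLOCK and BMAL1, at 126 to 121 bases.
Dusp5: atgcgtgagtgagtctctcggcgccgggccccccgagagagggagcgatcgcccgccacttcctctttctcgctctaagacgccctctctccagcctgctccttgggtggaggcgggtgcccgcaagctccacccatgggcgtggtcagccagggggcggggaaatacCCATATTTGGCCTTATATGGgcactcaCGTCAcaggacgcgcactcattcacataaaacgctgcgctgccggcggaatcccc
Dusp1: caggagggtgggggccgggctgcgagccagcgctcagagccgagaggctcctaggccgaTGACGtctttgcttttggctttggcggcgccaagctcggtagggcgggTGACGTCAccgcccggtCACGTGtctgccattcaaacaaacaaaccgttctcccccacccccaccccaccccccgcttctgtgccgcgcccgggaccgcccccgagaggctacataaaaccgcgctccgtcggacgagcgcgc

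Among all 32851 promoters of the same length (250 bases before to 50 after the start), 1.63% hold a CArG box, 1.79% hold TGACGTCA, 20.8% hold the core TGACG, which lies within the full element, and 7.15% hold CACGTG. Among the 7 matched genes, Dusp5 alone held a CArG box, Dusp1 alone held TGACGTCA and CACGTG, and the core was found in 3 (Dusp1, Dusp5 and Spred2). The AP-1 letters TGANTCA, present in 7.81% of promoters, were in none of the 7, and the ETS core CCGGAA, present in 14.9%, was in Spry2 only. These are matches of letters within 1 window, not sites shown to be bound.

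Dusp4 was highest in the Day DKO libraries, and none of its differences passed the test. Dusp4 (chr8:34807610-34819894, plus strand), or MKP-2, is the other inducible nuclear phosphatase of this set. By day it was measured at 6.70, 7.20 and 5.88 FPKM in DKO, against 5.26, 4.68 and 5.69 FPKM in WT, with no overlap. The day difference was 0.29 (means 6.6 ± 0.667 and 5.21 ± 0.506 FPKM, 95% interval 0.12 to 0.46, adjusted p = 0.094). At night it was measured at 5.82, 5.40 and 5.31 FPKM in DKO, against 6.0, 6.16 and 5.51 FPKM in WT, with overlap and a difference of -0.08 (adjusted p = 0.807). Night minus day was -0.22 in DKO (adjusted p = 0.229) and 0.15 in WT (adjusted p = 0.267). The interaction was -0.37 (95% interval -0.61 to -0.13, limma adjusted p = 0.505).

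The cytoplasmic, ERK-specific phosphatases lay higher and varied less. Dusp6 (chr10:99263231-99267489, plus strand), or MKP-3, is the phosphatase most widely used as a marker of ERK output downstream of fibroblast growth factor receptors. It was measured at 22.15, 22.85 and 26.27 FPKM in Night DKO, against 19.27, 20.93 and 21.48 FPKM in Night WT, and at 20.57, 24.01 and 20.71 FPKM in Day DKO, against 18.53, 19.69 and 18.99 FPKM in Day WT. DKO lay above WT without overlap at both times, by 0.20 at night (95% interval 0.03 to 0.36, adjusted p = 0.458) and 0.18 by day (95% interval 0.01 to 0.34, adjusted p = 0.262). The average over both times was 0.19 (1.15-fold, SE 0.05, limma adjusted p = 0.0998), and none of these passed the threshold. Its time differences were 0.12 in DKO and 0.10 in WT, the WT one turning to -0.003 with quantile normalization and -0.013 with same-sum scaling.

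Dusp7 (chr9:106368560-106375724, plus strand) codes for a close relative of the Dusp6 phosphatase. It was the steadiest of the 9, at 17.04, 16.62 and 15.51 FPKM in Night DKO and 16.50, 17.04 and 16.88 FPKM in Night WT, and at 16.09, 16.52 and 16.11 FPKM in Day DKO and 15.23, 16.11 and 14.56 FPKM in Day WT. In WT the night libraries lay above the day libraries without overlap, by 0.13 (95% interval 0.01 to 0.25, adjusted p = 0.185). Over the settings that kept all libraries that difference ranged from 0.01 to 0.14. The genotype difference averaged over time was 0.02 with a 95% interval of -0.06 to 0.11.

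Spred1 (chr2:117121071-117182279, plus strand), which binds neurofibromin and brings it to the membrane to switch Ras off, was highest in Day DKO. By day it was measured at 17.92, 15.65 and 14.79 FPKM in DKO, against 14.20, 13.72 and 14.46 FPKM in WT. The groups did not overlap, and the difference was 0.17 (means 16.1 ± 1.62 and 14.1 ± 0.375 FPKM, 95% interval 0.04 to 0.31, adjusted p = 0.191). At night it was measured at 14.12, 14.63 and 14.67 FPKM in DKO, against 14.41, 14.05 and 14.26 FPKM in WT, a difference of 0.02 (95% interval -0.12 to 0.16). Spred2 (chr11:19924442-20024026, plus strand), its relative, stood near 1 FPKM, where the added 1 in the log2 scale shrinks differences. It was measured at 1.17, 1.28 and 1.19 FPKM in Night DKO, against 1.06, 1.05 and 1.12 FPKM in Night WT. By day it was measured at 1.41, 1.38 and 1.17 FPKM in DKO, against 1.43, 1.16 and 1.14 FPKM in WT. Night DKO lay above Night WT without overlap, by 0.09 (adjusted p = 0.74), and the day libraries overlapped.

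The Sprouty genes showed no difference past the threshold in any comparison, and their 4 group means lay close together. Spry2 (chr14:105891947-105896819, minus strand) codes for an inhibitor of receptor tyrosine kinase signalling that is phosphorylated after growth factor stimulation. It was measured at 6.62, 6.38 and 6.52 FPKM in Night DKO, against 5.06, 6.59 and 6.48 FPKM in Night WT, and at 6.07, 6.62 and 5.90 FPKM in Day DKO, against 6.20, 6.92 and 5.70 FPKM in Day WT. The single low value was Night WT replicate 1, the library without Y-linked RNA. Without it the night difference went to -0.006, against 0.10 with it. Spry4 (chr18:38586247-38601347, minus strand), which also restrains Ras and Raf, was measured at 2.12, 1.58 and 1.69 FPKM in Night DKO, against 1.71, 1.76 and 2.02 FPKM in Night WT, and at 2.10, 1.80 and 1.63 FPKM in Day DKO, against 2.00, 1.68 and 1.96 FPKM in Day WT. All 4 of its simple differences were -0.02, with 95% intervals no wider than -0.22 to 0.17. In the annotation Spry4 overlaps the small RNA genes Gm27369 and Gm27804 by 71 and 119 bases.

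**Figure D2:**
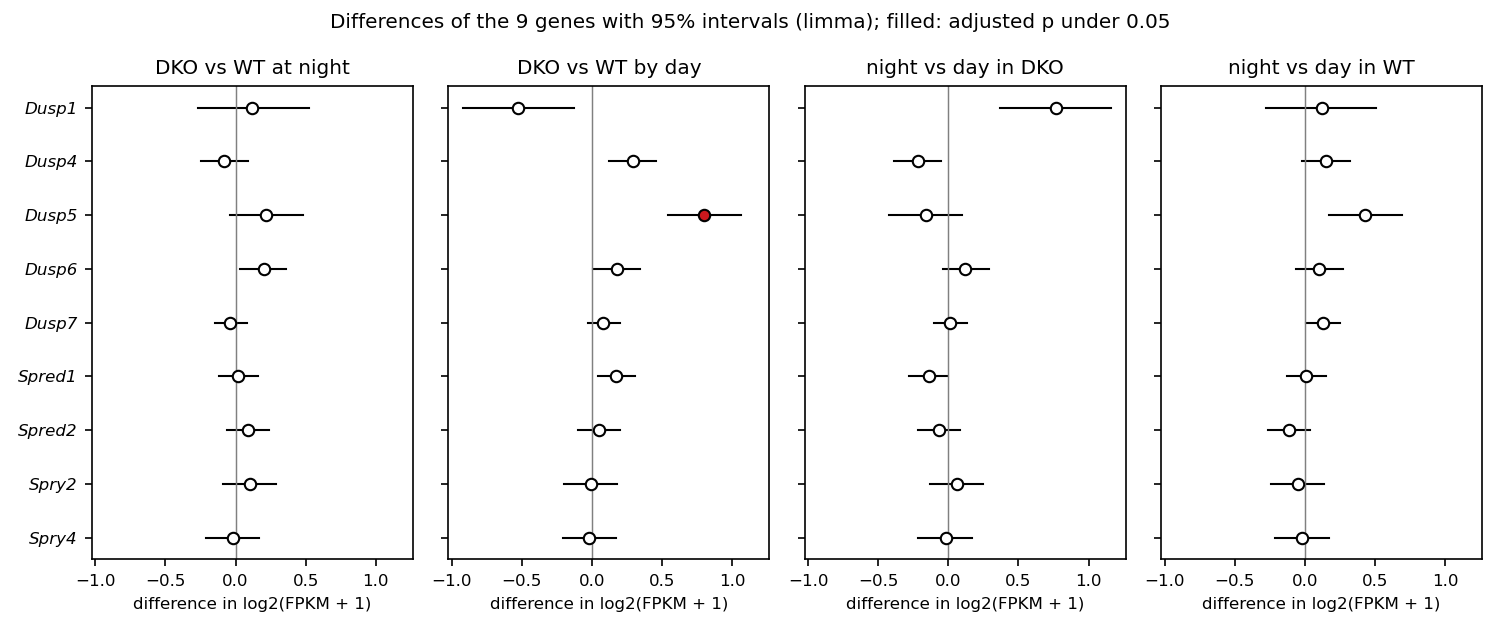
Differences in log2(FPKM + 1) of the 9 genes (x axis) with 95% intervals from limma, one panel per comparison; filled points have adjusted p under 0.05. Dusp5 by day (0.80) is the only filled point among the 4 simple comparisons, and Dusp1 at night against day in DKO (0.77) is the next largest in size.

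Counted together, 1 of the 9 genes was called for genotype by day, beside the 1.18% of all tested genes, and none at night, where 0.0236% were called. None was called for night against day in DKO (background 0.299%) or in WT (background 1.67%). For the interaction limma called none of the 9 and 0% of all genes. Averaged over time 1 of the 9 was called for genotype (background 1.88%), and averaged over genotype none was called for time (background 6.07%). At an unadjusted p under 0.05 the numbers were 1 of 9 for genotype at night (9.18% of all genes), 3 for night against day in DKO (15.1%), 2 in WT (22.3%), 3 for the interaction, namely Dusp1, Dusp4 and Dusp5 (8.66%, or 1099 genes) and 1 for averaged time (26.2%). By day 5 of the 9 had an unadjusted p under 0.05 for genotype, against 17.0% of all genes. Averaged over time 3 of the 9 did for genotype (Dusp5, Dusp6 and Spred1), against 16.2% of all genes.

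Groups that did not overlap were as follows. By day 4 genes were higher in DKO than in WT (Dusp4, Dusp5, Dusp6 and Spred1) and none was lower, with 19.6% of all tested genes not overlapping. At night 2 were higher in DKO (Dusp6 and Spred2), with a background of 15.2%. Night lay above day for Dusp1 and below day for Dusp4 and Spred1 in DKO (background 19.4%), and above day for Dusp5 and Dusp7 and below day for Spred2 in WT (background 28.7%). The median difference of the 9 genes was 0.08 by day and 0.09 at night for DKO against WT, beside 0.04 and -0.01 over all tested genes. The day comparisons of genotype and the comparisons of time share the day groups, so the values of Dusp4, Dusp5 and Dusp1 in them are not independent.

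Other genes of the pathway were read from 9 lists with 122 genes, of which 113 were tested; 8 lay under the filter and Spry3 was not analysed here. By day 4 of the 113 rose in DKO and 1 fell (4.42% called, beside 1.18% of all tested genes), and 28 had an unadjusted p under 0.05 (24.8%, beside 17.0% of all tested genes). Among the 4 other MAP kinase phosphatases, the 7 atypical dual-specificity phosphatases, the 2 other Sprouty and Spred genes, the 14 other Ras and ERK inhibitors, the 11 ERK substrates and the 16 receptor tyrosine kinases, limma called none by day (unadjusted p under 0.05 in 0, 1, 1, 4, 3 and 7). The nearest were Dusp14, an atypical phosphatase, at 7.23 ± 0.741 FPKM in Day DKO and 5.26 ± 0.369 FPKM in Day WT (0.39, adjusted p = 0.0599), and Spred3, at 3.69 ± 0.311 FPKM in Day DKO and 2.91 ± 0.127 FPKM in Day WT (adjusted p = 0.0938).

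Of 17 genes that ERK signalling induces, 2 rose by day. Etv5, an ETS factor downstream of growth factor receptors, averaged 10.3 ± 0.677 FPKM in Day DKO and 7.85 ± 0.325 FPKM in Day WT (0.35, adjusted p = 0.0321). Ccnd1, the cyclin D1 gene, averaged 7.69 ± 0.627 FPKM in Day DKO and 5.66 ± 0.383 FPKM in Day WT (0.38, adjusted p = 0.0322), and it also rose when averaged over time (0.30, adjusted p = 0.0183). Of 27 genes of the cascade itself, Grb2, the adaptor that links receptors to the Ras exchange factor SOS, rose to 27.0 ± 1.23 FPKM in Day DKO, against 21.6 ± 1.14 FPKM in Day WT (0.31, adjusted p = 0.0479). Of 15 ligands of receptor tyrosine kinases, 1 rose and 1 fell. Bdnf, the ligand of TrkB, averaged 4.96 ± 0.132 FPKM in Day DKO and 3.57 ± 0.385 FPKM in Day WT (0.39, adjusted p = 0.0469). Igf2, an insulin-like growth factor made in choroid plexus and meninges, averaged 7.64 ± 2.05 FPKM in Day DKO and 18.1 ± 5.41 FPKM in Day WT (-1.14, adjusted p = 0.0209). Over 24 alternative settings these day differences kept their sign, and Igf2 was called in 19, Etv5 in 13, Ccnd1 in 12, Bdnf in 8 and Grb2 in 8. Under the 3 other scalings Bdnf and Ccnd1 were not called, while Etv5 was called in 1, Grb2 in 2 and Igf2 in all 3. List medians by day lay between -0.05 and 0.18, beside 0.04 over all genes.

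At night none of the 113 genes was called for genotype by limma (0.0236% of all genes), and 15 had an unadjusted p under 0.05 (13.3%, beside 9.18% of all genes). Etv5 averaged 8.2 ± 0.649 FPKM in Night DKO and 8.33 ± 0.503 FPKM in Night WT, and Bdnf 3.63 ± 0.508 FPKM in Night DKO and 4.36 ± 0.237 FPKM in Night WT. Ccnd1 averaged 7.04 ± 0.549 FPKM in Night DKO and 5.92 ± 0.386 FPKM in Night WT. No interaction was called among the 113 (12, or 10.6%, at an unadjusted p under 0.05, beside 8.66% of all genes), so a difference between day and night in the effect of genotype was not established for these genes.

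**Figure D3:**
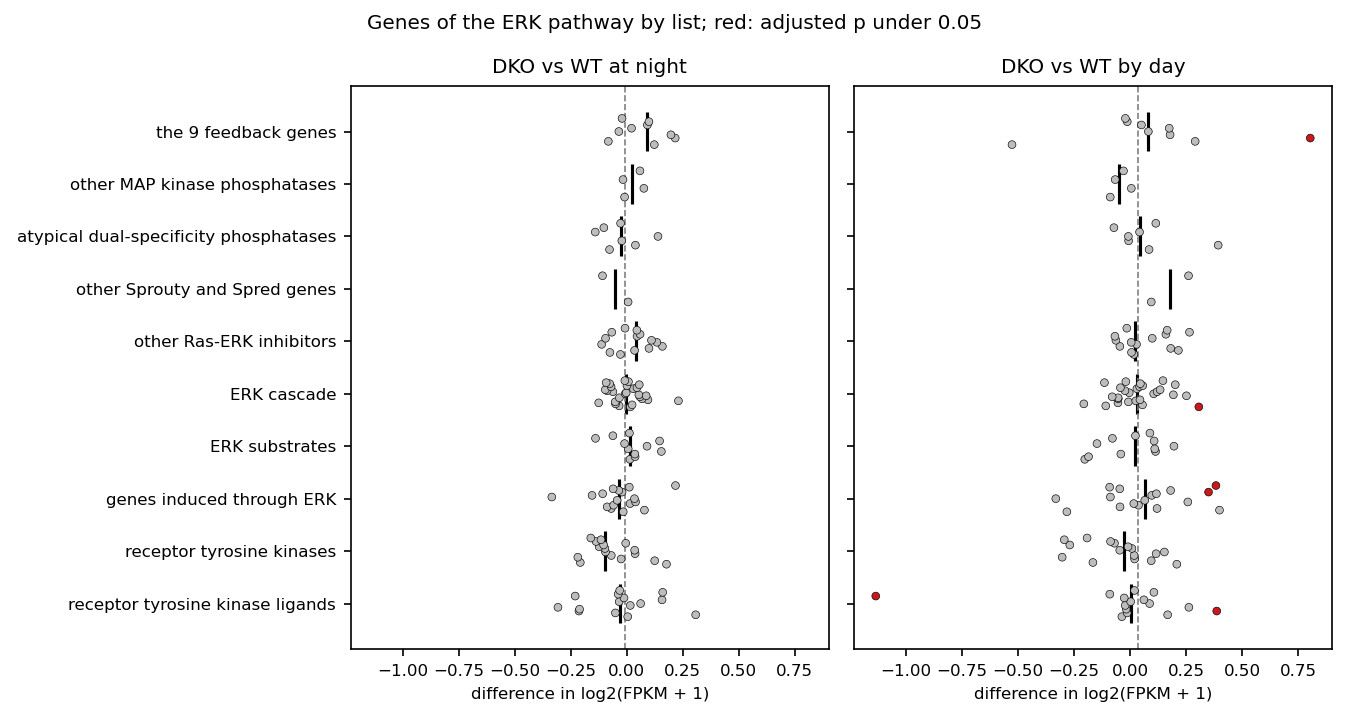
Differences in log2(FPKM + 1) (x axis) of the tested genes of the pathway lists (rows), one panel per comparison; each point is a gene, red points have adjusted p under 0.05, and the dashed line is the median of all tested genes. Most genes of each list lie around that line, with Igf2 (-1.14) by day as the called gene farthest from it.

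Between night and day the lists held few calls. In DKO limma called none of the 113, beside 0.299% of all genes (25, or 22.1%, at an unadjusted p under 0.05, beside 15.1%). In WT 3 rose at night and none fell, or 2.65% beside 1.67% of all genes (27, or 23.9%, at an unadjusted p under 0.05, beside 22.3%). They were Ier3, an immediate-early gene that prolongs ERK activity, at 4.77 ± 0.26 FPKM in Night WT and 2.48 ± 0.262 FPKM in Day WT (0.73, adjusted p = 0.0357), Errfi1, an inhibitor of the EGF receptor, at 11 ± 1.16 FPKM in Night WT and 8.16 ± 0.402 FPKM in Day WT (0.39, adjusted p = 0.0485), and Rasal2, a GTPase activator that switches Ras off, at 8.1 ± 0.398 FPKM in Night WT and 6.53 ± 0.0757 FPKM in Day WT (0.27, adjusted p = 0.0447). These calls depended on the processing and on single libraries: under each of 3 other scalings all 3 genes lost theirs, and over 24 alternative settings Ier3 was called in 14, Errfi1 in 7 and Rasal2 in 7, with no change of sign. Among all tested genes 212 were called for time in WT, and the number was 1 without Night WT replicate 1, without Night WT replicate 2, without Night WT replicate 3 or without Day WT replicate 1.

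The RNA of some cell type markers differed between the groups. In bulk RNA, fewer cells of a type and less RNA per cell cannot be told apart. The 8 choroid plexus markers were above 0 in every library, and their sum ranged over 1880 to 2970 FPKM in Night DKO, 1340 to 3100 FPKM in Night WT, 61.0 to 1770 FPKM in Day DKO and 1100 to 2730 FPKM in Day WT. None of the 8 was called by day, with a median difference of -1.14. The 5 mural cell markers, all above 0, summed to 19.2 to 19.7 FPKM in Day DKO and 22.7 to 34.2 FPKM in Day WT, and 3 of 5 fell in DKO by day (Tagln, Acta2 and Myh11, by log2 differences of -1.25, -1.03 and -0.85). The 5 excitatory neuron markers summed to 559 to 645 FPKM in Day DKO and 519 to 571 FPKM in Day WT, and 1 of 5, Neurod2, rose (0.51, adjusted p = 0.0153). The 5 microglia markers summed to 34.5 to 38.2 FPKM in Day DKO and 28.1 to 32.3 FPKM in Day WT, and the 5 oligodendrocyte markers to 229 to 286 FPKM in Day DKO and 295 to 316 FPKM in Day WT. The 5 astrocyte markers summed to 269 to 295 FPKM in Day DKO and 257 to 266 FPKM in Day WT, and the 5 endothelium markers to 27.9 to 31.3 FPKM in Day DKO and 31.8 to 37.3 FPKM in Day WT. The sums of these 4 lists did not overlap by day, and none of their genes was called by day. Taken singly, 19.6% of all tested genes did not overlap by day. A sum mostly follows the most abundant genes of its list. The median difference by day was 0.23 for microglia, -0.18 for oligodendrocytes, 0.02 for astrocytes and -0.23 for endothelium, beside 0.04 over all genes. Within the endothelium list Ly6c1 went the other way, at 3.94 FPKM in Day DKO and 2.72 FPKM in Day WT. Averaged over time, limma called 2 of the 5 microglia markers higher in DKO, where 1.88% of all tested genes were called. They were Aif1 (0.34, adjusted p = 0.0148) and Csf1r, called in 22 and 10 of 23 alternative settings. Neurod2 was also called higher in that comparison, and Tagln, Acta2 and Myh11 lower. The 5 inhibitory neuron and 4 oligodendrocyte precursor markers overlapped between the day groups, with none called. With the choroid plexus level in the model the Dusp5 difference by day was 0.72, against 0.80 without it, and its call was lost. The part of the other cell types in the Dusp5 result was not tested.

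The genes were also compared by the likeness of their profiles over the 12 libraries, with Pearson's r of log2(FPKM + 1) as a description, since the libraries share groups and the best of 10850 genes was taken each time. Dusp1 was most like Tef (r = 0.924) and Per3 (r = 0.89). Tef codes for a clock-controlled transcription factor and Per3 for a period protein of the circadian clock. Tef averaged 42.9 ± 1.92 FPKM in Night DKO and 34.9 ± 1.67 FPKM in Day DKO, and 41.2 ± 1.27 FPKM in Night WT and 39.4 ± 3.46 FPKM in Day WT. Per3 averaged 2.64 ± 0.123 FPKM in Night DKO and 1.56 ± 0.372 FPKM in Day DKO, and 2.53 ± 0.0737 FPKM in Night WT and 2.26 ± 0.0491 FPKM in Day WT. As for Dusp1, Day DKO was the lowest of the 4 groups for both, but both genes were picked for their likeness to Dusp1. The third most alike was Jmy (r = 0.871), which codes for a junction-mediating and regulatory protein. Jmy averaged 4.19 FPKM in Day DKO, 4.42 FPKM in Day WT, 4.65 FPKM in Night DKO and 4.67 FPKM in Night WT. A link of Dusp1 to the clock was not tested.

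**Figure D4:**
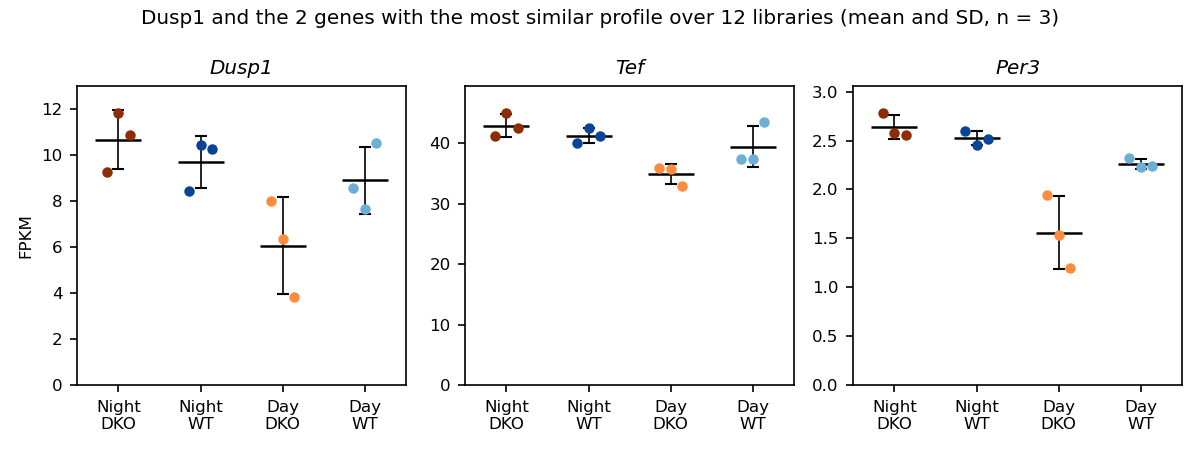
Level in FPKM (y axis) of Dusp1, Tef and Per3 in each library of Night DKO, Night WT, Day DKO and Day WT; points are libraries, and the bar and whiskers are the mean and SD (n = 3). In all 3 genes Day DKO has the lowest mean, at 6.06, 34.9 and 1.56 FPKM.

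The profiles of the other genes were led by different neighbours. Dusp4 was most like Etnk1 (r = 0.932), Dusp5 like Mtpap (r = 0.9), Dusp6 like Nim1k (r = 0.928) and Dusp7 like Mt2 (r = 0.939). Spred1 was most like Fam13b (r = 0.904), Spred2 like Myo9b (r = 0.863) and Spry2 like Moap1 (r = 0.899), while the best match of Spry4 was weaker (Chka, r = 0.786). None of the 9 had another of the 9 as its closest gene. Among the pairs within the set, Dusp4 with Dusp5 (r = 0.71), Dusp4 with Spred1 (r = 0.67) and Dusp5 with Spred1 (r = 0.62) were the most alike, and Dusp1 with Dusp4 the least (r = -0.29).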

How the data were processed

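RNA of mouse hippocampus was measured in 12 libraries, 4 groups of 3. Total RNA, freed of ribosomal RNA, was made into stranded TruSeq libraries, per the labels' protocols. GRCm38.p6 is the build in the submitters' processing notes. The sources used here name no aligner, quantifier or annotation. The authors deposited 1 FPKM table per library; the unit was read from the values. The symbols of 27 genes that had become dates were restored from gene IDs.

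Values deposited by the authors as FPKM were transformed to log2(FPKM + 1), and genes that reached 0.5 FPKM in 3 or more libraries went into limma 3.58.1 (R 4.3.3). The fit used 4 group means over 12 libraries and an intensity trend, and 7 comparisons were taken from it. Tests were 2-sided with Benjamini-Hochberg adjustment over all genes, and called at 0.05. The fit was tested on simulated data. The labels do not say that libraries came from separate mice, so the p-values speak of the spread between these samples, which may be technical. The 9 genes and the lists were chosen with earlier results of these data known. Named genes are the 9 members, Psen2 and the genes most like each member. Named list genes were drawn from those called or among the 3 smallest p of a list. Calls of cell type markers for time, in Aldh1l1, Cldn5, Ly6c1, Mog and Neurod2, are not described above. Alternatives changed the pseudocount, filter, scaling, samples, covariates and variance model, and left out each library in turn.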

Additional observations from a re-analysis of the deposited data

How the results depend on the processing

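In 24 alternative settings the number of the 9 genes called stayed the same except as follows. For DKO against WT by day it was 1 as reported, 0 without the filter, 0 with the choroid plexus covariate, and 0 to 1 with a library left out (0 without Day WT replicate 2). For genotype averaged over time it was 1, and 0 with no filter (Dusp5 adjusted p = 0.0502). For time averaged over genotype it was 0, and 1 (Dusp1) with the choroid plexus covariate (0.59, adjusted p = 0.0315) and with quality weights (0.47, adjusted p = 0.043). Leaving out a library gave 0 to 1 there and 0 to 1 for night against day in DKO, in both cases Dusp1 without Day DKO replicate 1. The cause was not tested. Whether the replicate numbers pair the samples was not settled. For same-numbered pairs of libraries from different groups r ran from -0.116 to 0.247 (18 pairs, 7 over 0.1). For different-numbered pairs it ran from -0.204 to 0.22. With a replicate block Dusp5 by day stayed called (0.80, adjusted p = 0.0252), with 178 genes called in all, and no call among the 9 genes changed.

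The number of all genes called ranged over 2 to 205 by day (2 with the choroid plexus covariate, 26 with no filter, 50 with only the groups compared, 96 with quantile normalization, 13 without Day WT replicate 2), 2 to 38 at night, 15 to 65 for time in DKO, 1 to 418 for time in WT, 0 to 1 for the interaction, 24 to 339 for averaged genotype and 243 to 894 for averaged time. By day 101 genes were called higher and 49 lower, against 66 and 65 with median-of-ratios scaling, 51 and 45 with quantile normalization and 54 and 59 with same-sum scaling. For time in WT 192 were higher and 20 lower at night, against 23 and 34, 26 and 46, and 15 and 47 in the same 3 scalings, and for averaged time 659 and 111, against 206 and 284, 231 and 345, and 146 and 358. For time in DKO they were 23 and 15, against 24 and 41, 24 and 39, and 21 and 34, and for averaged genotype 127 and 111, against 142 and 172, 126 and 154, and 144 and 170. The median of all genes for time in WT was 0.07 as reported and lay between -0.02 and 0.01 in those scalings.

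Of 63 member differences, 21 changed sign in at least 1 setting, none over 0.102 in size or with an unadjusted p below 0.0886. In median-of-ratios, quantile and same-sum scaling, Spred1 for night against day in WT was -0.07, -0.086 and -0.102, the Spry4 interaction 0.035, 0.005 and 0.048, and Spry2 for averaged time -0.046, -0.05 and -0.066 (-0.006 with quality weights). Dusp7 for night against day in DKO was -0.019 with median-of-ratios and -0.031 with same-sum scaling, Dusp6 in WT -0.003 with quantile and -0.013 with same-sum scaling, Dusp7 -0.01 for averaged genotype with quantile and -0.008 for averaged time with same-sum scaling, and Dusp4 0.033 for averaged time with the choroid plexus covariate. With a library left out, genotype by day ranged over -0.07 to 0.05 for Spry2 and -0.085 to 0.034 for Spry4. Genotype at night ranged over -0.062 to 0.002 for Dusp7, -0.006 to 0.156 for Spry2 and -0.103 to 0.035 for Spry4. Time in DKO ranged over -0.015 to 0.049 for Dusp7 and -0.106 to 0.04 for Spry4, and time in WT over -0.008 to 0.027 for Spred1, -0.107 to 0.055 for Spry2 and -0.075 to 0.007 for Spry4. The interaction ranged over -0.053 to 0.088 for Dusp6, -0.019 to 0.074 for Spred2 and -0.082 to 0.064 for Spry4. Averaged genotype ranged over -0.009 to 0.075 for Spry2 and -0.062 to 0.007 for Spry4, and averaged time over -0.023 to 0.058 for Spry2 and -0.065 to 0.008 for Spry4. Depth per library is unknown, so no floor on the low values of Spred2 and Spry4 can be given.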

Other observations

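Averaged over genotype, 7 of the 113 tested genes of the other ERK lists were called for time by limma, 6 higher and 1 lower at night, where 6.07% of all tested genes were called. Under the 3 other scalings Ier3, Fgf2 and Elk1 stayed called, and Rasal2, Fgfr3, Pdgfa and Shoc2 did not. Besides Ier3 (0.61, adjusted p = 0.00794) and Rasal2 (0.20, adjusted p = 0.0204) they were 4 genes higher at night. Fgf2, a fibroblast growth factor, stood at 0.761 ± 0.124 and 0.422 ± 0.0647 FPKM in Night DKO and Night WT, against 0.379 ± 0.11 and 0.227 ± 0.0954 FPKM in Day DKO and Day WT (0.28, adjusted p = 0.0235). Fgf2 reached the 0.5 FPKM of the filter in Night DKO only, where the lowest library held 0.618 FPKM. Its highest values elsewhere were 0.496 FPKM in Night WT, 0.471 FPKM in Day DKO and 0.317 FPKM in Day WT. It was thus tested only because it was high in a night group, so its call is no independent evidence of a time difference. Fgfr3, a receptor for fibroblast growth factors, stood at 13.3 ± 0.768 and 12.2 ± 1.22 FPKM in Night DKO and Night WT, against 11.1 ± 0.592 and 10.4 ± 1.18 FPKM in Day DKO and Day WT (0.22, adjusted p = 0.048). Pdgfa, a platelet-derived growth factor (0.17, adjusted p = 0.0481), and Shoc2, a scaffold of Ras and Raf (0.15, adjusted p = 0.0389), differed less. Elk1, an ETS factor that ERK phosphorylates, was lower at night, at 9.42 ± 1.18 and 8.37 ± 0.0409 FPKM in Night DKO and Night WT, against 12.1 ± 0.29 and 11.3 ± 2.38 FPKM in Day DKO and Day WT (-0.36, adjusted p = 0.0259; SD, n = 3 in each group). Igf2 was also lower in DKO when averaged over time (-0.68, adjusted p = 0.0263).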
